A study of Mus musculus with 183 samples.

Results

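The mRNAs described here are those with the highest relative binding to MTR4 in mouse embryonic stem cells (mESCs). They were chosen on the measured MTR4 value itself. Among the mRNAs of the deposited binding table with a median RNA-seq level of at least 5 RPKM and a name not starting with Hist, the 200 with the largest MTR4 ratio were taken, out of 6296 eligible mRNAs and 7240 in the table. Relative binding came from CRAC, in which a tagged protein is crosslinked to RNA by UV, purified under denaturing conditions and its RNA fragments are sequenced. For each mRNA the ratio is the share of one protein in the pooled, scaled reads of MTR4, SKIV2L and XRN1, so that the ratios to these 3 proteins sum to 1. The pooled MTR4 values rest on 3 libraries of this series and 3 published ones. The cells of the 3 libraries of this series carried Rosa26Cre-ERT2/BirA-V5 and an endogenous 3xFLAG-Avi tag on both Mtr4 alleles and were untreated, and the tag behind the published ones was not looked at here. The SKIV2L and XRN1 reads came from lines that, by the study's list, carried the same Rosa26 alleles. These lines had an endogenous 3xFLAG-Avi tag on both Skiv2l or both Xrn1 alleles. The median RPKM was taken over the 3 tagged lines.

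The decay of the same mRNAs was followed in 47 further RNA-seq libraries of 2 mESC lines, each of which is 1 clone, grown in serum and LIF. Clone 5F is Rosa26Cre-ERT2/- Skiv2l fl/fl. For clone 7E the labels of the half-life libraries give Rosa26Cre-ERT2/BirA-V6 with Skiv2l 3xFLAG-Avi/3xFLAG-Avi and Aven-/-, and the study's list of lines and its RNA-seq labels add Skiv2l fl/fl. Both clones were sampled without 4-hydroxytamoxifen (4OHT, day 0) and at day 4 of 4OHT, which activates the Cre recombinase, and at each day after 120, 240 or 360 min of the transcription inhibitor actinomycin D or after a mock treatment with solvent. Each group held 3 libraries, and clone 5F at day 0 and 120 min held 2. The study calls these replicates technical, so p-values below measure the spread between such libraries and not between independent cultures or clones. In bulk libraries, fewer cells of a type and less RNA per cell cannot be told apart.

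MTR4 is the RNA helicase of the nuclear exosome, the complex that degrades RNA in the nucleus from its 3′ end. It is recruited by adaptor complexes: NEXT, with ZCCHC8 and RBM7, brings it to short unprocessed transcripts, PAXT, with ZFC3H1, to polyadenylated ones, and TRAMP to RNA in the nucleolus. SKIV2L is its cytoplasmic relative, which assists the cytoplasmic exosome, and XRN1 degrades decapped mRNA from the 5′ end in the cytoplasm.

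First, 3 stretches of 3′ UTR, of 23 bases each, are printed from the members that hold the heptamer TATTTAT among the 5 that fell fastest after transcription was shut off, and the others of these 5, Ppp1r10 and Zkscan1, hold none. The capitals mark this AU-rich heptamer, of the kind found in the 3′ UTRs of many short-lived mRNAs. They were read on the transcribed strand from the GRCm38 genome at sites in the Gencode M21 transcripts.
Lcmt2, chr2:121138249-121138271, minus strand: ggacctatTATTTATtgagtcac
Zfp719, chr7:43591489-43591511, plus strand: tgaaatttTATTTATcacagatc
Nr2c2, chr6:92172301-92172323, plus strand: aatattgaTATTTATacatggaa
The first heptamer lies 277 bases after the stop codon in the 942-base 3′ UTR of Lcmt2, which holds 2 of them. It lies 300 bases into a 3′ UTR of 2038 bases in Zfp719 and 4676 bases into one of 5424 bases in Nr2c2.

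The members' MTR4 ratio had a median of 0.750 and ranged from 0.688 to 0.968, against a median of 0.303 over the eligible mRNAs. These values chose the members and are a description. The remainder was split almost evenly, with a median of 0.113 for SKIV2L and 0.108 for XRN1, whereas the eligible mRNAs had medians of 0.286 and 0.346. The largest ratio, 0.968, was that of 2410002F23Rik (chromosome 7, 44246722 to 44252319), an uncharacterized gene which hosts the small nucleolar RNAs Snord88a and Snord88c. Clmp, a cell adhesion protein, followed with 0.940, Lpar6, a lysophosphatidic acid receptor, with 0.929, and Btbd19, a BTB-domain protein, with 0.928. The next 3 were H2afj, a histone H2A variant that the name filter did not remove, with 0.919, Rpl31, a protein of the large ribosomal subunit, with 0.913, and Prrg2, a membrane Gla protein, with 0.910. Sfi1, a centrosomal protein, had 0.908, Zmym6, a MYM-type zinc finger protein, 0.906, and Cnpy1, a canopy-family protein, 0.906.

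The limit of 200 cuts a continuum. Just inside it were Kri1 with an MTR4 ratio of 0.6889, Vps13b with 0.6888 and Nrm with 0.6881, and just outside were Trim41 with 0.6879, Ssbp1 with 0.6877 and Ccdc106 with 0.6876. The pooled table gives no reads per mRNA, so the counting error and the spread between replicates behind these differences are unknown. All ratios of 8 members were identical to those of another mRNA of the table, for example Uros and Tmem44 with 0.809, and 564 of the 6296 eligible mRNAs did so. When the MTR4 value was instead taken after the authors' scaling to RNA level, 134 members (67%) were still among the top 200.

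**Figure D1:**
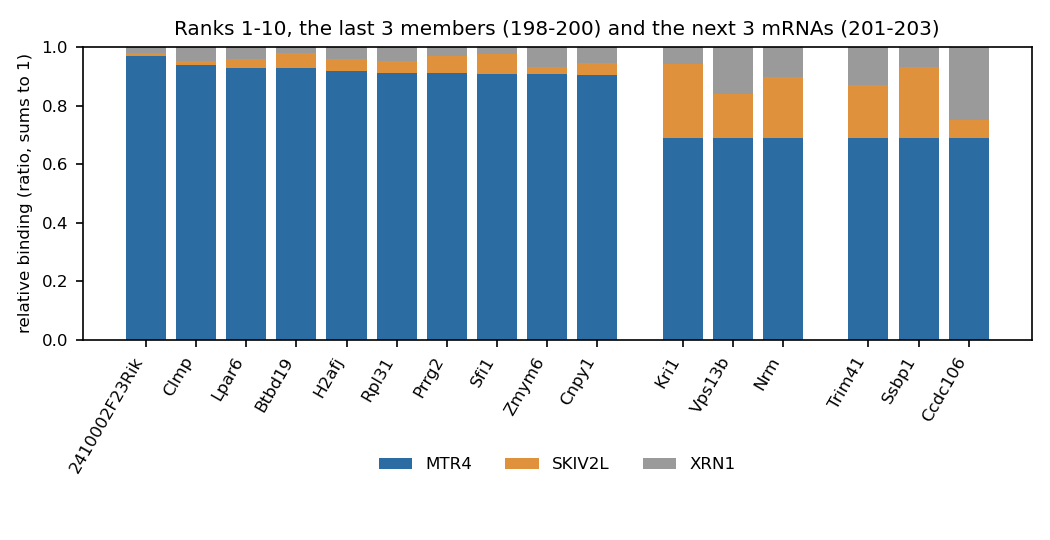
Relative binding to MTR4, SKIV2L and XRN1 (ratios, y axis, summing to 1) of the 10 members with the largest MTR4 ratio, the last 3 members and the next 3 mRNAs. MTR4 takes over 0.9 of each of the first 10 bars, and its parts of the bars on either side of the limit are level at 0.688 to 0.689.

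AVEN, a further protein tagged in the study, whose CRAC reads were set against the same sum, had a median ratio of 0.156 in the members and 0.303 in the eligible mRNAs. It ranged from 0 to 0.815 among the members. Because it shares the denominator with the ratio that chose them, this is a description too.

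The members were less abundant and shorter than the eligible mRNAs. Their median level in the tagged lines was 9.91 RPKM against 25.3, and 101 of 200 (50.5%) lay between 5 and 10 RPKM, against 1082 of 6296 (17.2%). The transcript used for mapping had a median length of 2343 bases against 2963.5, and of its parts the 3′ UTR differed most, with medians of 543.5 and 936.5 bases. The coding sequence had medians of 1197 and 1422 bases, whereas the 5′ UTR was longer in the members, with 203.5 against 162 bases. GC content was almost the same, with medians of 50.2% and 50.1%. The part of low abundance in the choice of members was not tested.

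Transcripts of 1 exon made up a larger share of the members than of the eligible mRNAs. Of the 187 members whose transcript could be matched to the annotation, 16 (8.56%) consisted of 1 exon, against 81 of 5829 eligible mRNAs (1.39%). The 13 of these on nuclear chromosomes include Lpar6, H2afj, the dolichol kinase Dolk, the tRNA-modifying methyltransferase Lcmt2, the mannosyltransferase Pigm, the transcription factor Sox4 and Rnf113a2. The other 3 are mRNAs of the mitochondrial genome, mt-Nd1 (MTR4 ratio 0.779), mt-Nd4 (0.754) and mt-Cytb (0.692), which encode subunits of the respiratory chain. The other 4 eligible mitochondrial mRNAs lay between ranks 283 and 874 and had ratios of 0.515 to 0.655. Pieces of the mitochondrial genome have near-identical copies in the nucleus, so the values of these 3 members depend on how unique mapping splits such reads.

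Annotated retained introns and hosted small RNAs differed little. A transcript with a retained intron was annotated for 138 members (69%) and 67.2% of the eligible mRNAs, and 14 members (7%) hosted a small RNA against 7.66%. The CRAC reads were mapped to spliced transcripts, so intron-bound reads are not part of any ratio. A gene on the opposite strand overlapped 98 members (49%) and 40.9% of the eligible mRNAs. The half-life libraries were made with the TruSeq v2 kit, per the labels, which does not mark the strand, so reads of such pairs cannot be told apart, which holds among the genes named below for Lcmt2, Nr2c2, Nrm, Nek1, Gatb, Uros, Prrg2, Rps2, Clmp, Lpar6, B3galnt2, Homer3, Timm21, Cacna1a, Sfi1, Eef2kmt, Nphs1, Dolk and Polk. The heptamer TATTTAT, searched on the transcribed strand and overlapping the pentamer ATTTA, was in the 3′ UTR of 33 of 187 members (17.6%) and 1592 of 5829 eligible mRNAs (27.3%), whose 3′ UTRs are longer. ATTTA itself was in 54.5% and 66.6%.

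Of the fixed lists of nuclear-encoded genes, the cytosolic ribosomal proteins held the largest share of members. Of 55 eligible ribosomal protein mRNAs 6 (10.9%) were members: Rpl31, Rpl30 (0.855), Rps27a (0.837), Rpl21 (0.827), Rps2 (0.782) and Rpl41 (0.737). The other 49 had a median MTR4 ratio of 0.176. The median of their mean mock counts was 6047, against 1708 for the 6 members, and most ribosomal protein genes have near-identical processed copies that take reads away under unique mapping, so both the counts and the ratios of these genes are uncertain. Their part in the ratios was not tested. Of 132 eligible C2H2 zinc finger genes 8 were members (Zfp719, Zfp692, Zfp397, Zfp746, Zkscan1, Zbtb26, Zfp606 and Zfp251), with MTR4 ratios from 0.689 to 0.874. Smaller lists gave 5 of 184 for the ubiquitin system, 5 of 131 for membrane trafficking and cilia, 4 of 96 for splicing regulators, 3 of 47 for DNA repair (Polk, Rad1 and Rad9b), 2 of 43 for cyclins, CDKs and E2F factors and 1 each for solute carriers (78), RNA polymerase III transcription (24, Gtf3a), immediate early and arrestin-domain genes (13, Arrdc2) and the mitochondrial ribosome and respiratory chain (143, Cox6b2). No p53 target (13), no subunit of the nuclear exosome (10), no cytoplasmic decay factor (8) and no mESC marker (10) was a member, against 3.18% of all eligible mRNAs.

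Among MTR4 and its adaptors 1 of 17 was a member, and that was Zfc3h1 (chromosome 10, 115384959 to 115432772), which encodes the zinc finger protein of PAXT. Its ratios were 0.837 for MTR4 (rank 32), 0.0643 for SKIV2L and 0.0983 for XRN1. Skiv2l2, the gene of MTR4, had 0.404 for MTR4 and 0.431 for SKIV2L. Rbm7 of the NEXT complex had 0.230 for MTR4, and Pabpn1, the nuclear poly(A) binding protein that works with PAXT, had 0.637. The list ranged from 0.195 to 0.837, with a median of 0.319.

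The half-life libraries held 24440935 to 34114250 counts each, and all 200 members passed the filter on low counts in every comparison. All 10 mESC markers were present at a mean of at least 86.4 CPM (counts scaled to a common library size), summing to between 2674 and 3250 CPM per mock library, and 5 of 16 markers of other cell types reached a mean of 10 CPM. The sum of those 16 was 226 to 239 CPM in clone 5F at day 0 and 229 to 249.7 CPM at day 4, and 157 to 158.6 CPM in clone 7E at day 0 and 268 to 299 CPM at day 4. Aven had 31.7 to 32.9 CPM in the day 0 mock libraries of clone 5F and 1.83 to 2.78 CPM in those of clone 7E. Skiv2l had 131 to 135 CPM in clone 5F at day 0 and 120.2 to 139.5 CPM at day 4, which is no fall (log2 change -0.01, adjusted p = 0.90). In clone 7E it was at 28.9 to 33.5 CPM at day 0 and 11.7 to 13.0 CPM at day 4. The recombination deletes some exons only and counts over the whole gene include the others, so these values check the deletion in part. The day 4 contrasts of clone 5F below therefore compare libraries labelled day 4 and day 0, with no fall of Skiv2l counts to mark the deletion. The study checked the recombination in its lines by RT-qPCR or western blot, which is not part of these counts.

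Decay at day 0 was measured as the slope of log2 counts per hour over mock, 120, 240 and 360 min, relative to the bulk of genes. A slope below 0 means that an mRNA fell faster than the bulk. More members fell faster than slower. In clone 5F, 91 members (45.5%) fell faster, where 34.5% of all genes tested did, and 51 (25.5%) fell more slowly, where 28.7% of all genes did (edgeR quasi-likelihood test, adjusted p under 0.05). In clone 7E, 84 members (42%) fell faster against 32.0% of all genes, and 54 (27%) fell more slowly against 29.5%. The members' median slope was -0.04 log2 per hour in clone 5F and -0.03 in clone 7E, with medians of 0.01 and 0.02 over the eligible mRNAs. Of the eligible mRNAs, 34.6% fell faster and 40.2% more slowly in clone 5F, and 30.2% and 42.4% in clone 7E.

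The clones were sampled in separate libraries, although libraries of the same number, day and time deviated together (correlations of 0.12 to 0.82 at day 0). In both clones 81 members (40.5%) fell faster and 46 (23%) more slowly, against 29.6% and 37.9% of the eligible mRNAs, and 0 members and 2 of the 6296 eligible mRNAs went opposite ways. Spearman's correlation between the members' slopes was 0.98, as it was over the 6296 eligible mRNAs. Slopes are given relative to the bulk because after transcription shut-off almost every mRNA falls: with the study's spike-in scaling the median slope over all genes moved by -0.22 log2 per hour in each clone, and 98.5% of the members in each clone then fell and 0% rose, against 89.5% of all genes falling in clone 5F and 92.5% in clone 7E. Without the mock libraries 29.5% of the members fell faster in clone 5F, against 20.0% of all genes, and 24% fell more slowly, against 14.3%. Clone 7E gave 29.5% and 24% without them, against 19.9% and 19.8% of all genes.

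**Figure D2:**
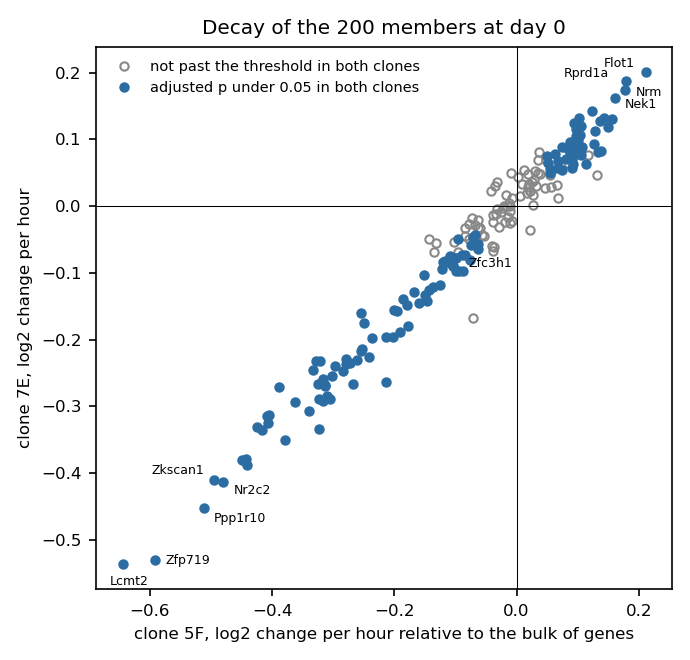
Slope of log2 counts per hour relative to the bulk of genes at day 0 for the 200 members in clone 5F (x axis) and clone 7E (y axis). The 127 filled points (81 below and 46 above 0 in both clones) lie along the diagonal, and Zfc3h1 is the open point at -0.10 and -0.07.

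The members that fell fastest are given first. Normalized counts are given here in the study's scaling, which divides by size factors and applies a spike-in factor for each time. Lcmt2, which modifies tRNA, had normalized counts of 462, 414 and 426 in the clone 5F mock libraries, 33.1 and 36.1 at 120 min, 21.6, 20.9 and 20.3 at 240 min and 13.3, 14.3 and 14.0 at 360 min. Its libraries did not overlap between any of these times, and 7.98% of the mock mean was left at 120 min. Its slope was -0.64 ± 0.07 (SE) log2 per hour in clone 5F (edgeR quasi-likelihood test, adjusted p = 1.12e-06) and -0.54 ± 0.05 in clone 7E (adjusted p = 3.11e-07). In clone 7E its counts were 606, 585 and 561 in the mock libraries and 27.0, 22.5 and 20.9 at 360 min.

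Zfp719, a KRAB-type zinc finger gene (chromosome 7, 43579610 to 43593235), fell from 1115, 1033 and 1117 normalized counts in the clone 5F mock libraries to 108 and 133 at 120 min and 38.4, 37.1 and 44.1 at 360 min. In clone 7E it fell from 1094, 999.7 and 1075 to 103, 118 and 119 at 120 min and to 37.0, 53.6 and 52.0 at 360 min. No library of a later time reached the lowest mock library in either clone. Its slopes were -0.59 ± 0.05 (SE, adjusted p = 2.93e-07) and -0.53 ± 0.07 (adjusted p = 6.67e-06, edgeR quasi-likelihood test).

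Nr2c2, an orphan nuclear receptor, went from 2491, 2425 and 2434 normalized counts in the mock libraries of clone 5F to 133, 134 and 149 at 360 min, and in clone 7E from 2658, 2544 and 2400 to 163, 176 and 186. Its slopes were -0.48 and -0.41 log2 per hour. Ppp1r10, the nuclear targeting subunit of protein phosphatase 1, followed another course: 26.1% of the mock mean was left at 120 min in clone 5F, 15.9% at 240 min and 4.03% at 360 min. Its slopes were -0.51 and -0.45. Zkscan1, a zinc finger gene, had slopes of -0.49 and -0.41. All 5 of these mRNAs passed the test in both clones, with adjusted p of at most 6.67e-06 (edgeR quasi-likelihood test).

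The slowest members were Flot1, a membrane scaffold protein, with slopes of 0.21 log2 per hour in clone 5F and 0.20 in clone 7E, Rprd1a, which binds the tail of RNA polymerase II, with 0.18 and 0.19, Nrm, a protein of the inner nuclear membrane, with 0.18 and 0.17, and Nek1, a kinase of cilia and the DNA damage response, with 0.16 in both. Gatb, of mitochondrial glutaminyl-tRNA synthesis, followed with 0.16 in clone 5F and Uros, of haem synthesis, with 0.14 in clone 7E. The normalized counts of Flot1 were 319.9, 364 and 340.1 in the mock libraries of clone 5F and 318, 305 and 350.1 at 360 min, which overlap, and 286, 248 and 246 against 224, 205 and 248 in clone 7E. These mRNAs rose relative to the bulk of genes, but in the study's scaling the slope of each turned below 0, from -0.00 for Flot1 to -0.06 for Nek1 and Gatb and -0.08 for Uros. Nrm is also the member with the smallest MTR4 ratio.

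**Figure D3:**
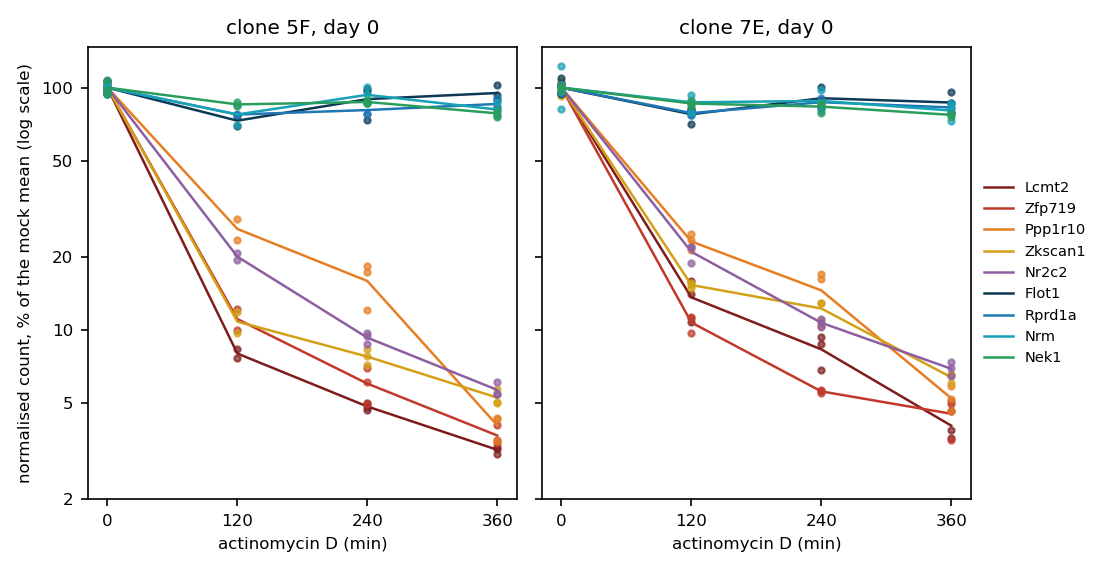
Normalized counts in percent of the mock mean (y axis, log scale) against minutes of actinomycin D (x axis, mock at 0) at day 0 in clones 5F and 7E, for the 5 fastest members and 4 of the slowest. Points are libraries and lines join the means. In clone 5F at 360 min the 5 fast mRNAs end between 3.20% (Lcmt2) and 5.65% (Nr2c2) and Flot1 at 95.0%.

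The fall was not a straight line for every member. Zfc3h1 had 2787, 2671 and 2705 normalized counts in the mock libraries of clone 5F, 792 and 763 at 120 min, 620.2, 571 and 648 at 240 min and 707, 801 and 753 at 360 min. It dropped to 28.6% of the mock mean within 120 min and was at 27.7% at 360 min. Clone 7E showed the same course, with 38.8% left at 120 min, 28.6% at 240 min and 29.0% at 360 min. Over all times its slope was -0.10 ± 0.04 (SE) log2 per hour in clone 5F, which missed the threshold (adjusted p = 0.0548), and -0.07 ± 0.03 in clone 7E (adjusted p = 0.0388, edgeR quasi-likelihood test). Without the mock libraries the slope turned to 0.14 and 0.05, so that the direction for this mRNA rests on the first interval, and in clone 7E the call is lost when any replicate is left out (adjusted p from 0.0691 to 0.130).

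The groups within the members differed in their counts. Of the 8 zinc finger members 7 fell faster than the bulk in each clone, with Zfp692 the exception (-0.03 and -0.01), and of the whole list of 132 genes 109 and 104 did so. Of the 16 members with 1 exon 12 fell faster in each clone, against 60 of the 81 eligible mRNAs of this kind, and of the 171 members with several exons 76 and 69 did. The 3 mitochondrial members fell faster in both clones, with slopes from -0.41 for mt-Nd1 in clone 5F to -0.08 for mt-Nd4 in clone 7E. The 33 members with a TATTTAT heptamer in the 3′ UTR had 23 fallers and 3 mRNAs slower than the bulk in clone 5F, and the 154 without one had 65 and 42. Over the eligible mRNAs the heptamer marked 763 fallers of 1592, and 1262 of the 4237 without it. These differences between groups were not tested, and all points share the same libraries. The ribosomal members went both ways: Rpl31 (0.10 and 0.09) and Rpl41 (0.10 and 0.09) were slower than the bulk in both clones, Rps27a (-0.21 and -0.26) and Rpl21 (-0.10 and -0.10) faster, Rps2 was slower in clone 5F (0.13, and 0.05 in clone 7E without a call), and Rpl30 (0.02 and 0.02) was not called.

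Among the 10 members with the largest ratio only Rpl31 was called slower than the bulk (0.10 and 0.09). Over all genes tested, 34.5% fell faster in clone 5F and 32.0% in clone 7E, and 28.7% and 29.5% more slowly. The calls of these 10 mRNAs are a description only. 2410002F23Rik fell faster, with slopes of -0.31 and -0.29 log2 per hour, as did Lpar6 (-0.39 and -0.27) and Btbd19 (-0.24 and -0.23), which passed the test in both clones. Clmp (-0.08 and -0.03) and Zmym6 (-0.14 and -0.05) passed it in clone 5F only, and whether the clones differ was not tested. Values that did not pass in either clone were those of H2afj (0.02 and -0.04), Prrg2 (-0.01 and -0.02), Sfi1 (0.05 and 0.05) and Cnpy1 (-0.01 and -0.03). Within the members the MTR4 ratio and the slope had a Spearman's correlation of -0.04 in clone 5F and -0.05 in clone 7E (200 mRNAs in the same libraries), and over the 6296 eligible mRNAs -0.24 and -0.23. The number of exons had a Spearman's correlation of 0.31 and 0.33 with the slope over 187 members and 0.14 and 0.15 over 5829 eligible mRNAs.

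Since members were less abundant, their shares were set beside other eligible mRNAs of the same level. Between 5 and 10 RPKM, 40.6% of 101 members and 45.3% of 981 other mRNAs fell faster than the bulk in clone 5F. At 20 RPKM and over it was 51.7% of 58 members and 27.4% of 3676 others. Clone 7E gave 35.6% against 41.8% in the lowest class and 48.3% against 22.5% in the highest. From 10 to 20 RPKM it was 48.8% of 41 members in each clone, against 44.1% of 1439 others in clone 5F and 40.4% in clone 7E. The members' share was above that of the others from 10 RPKM upward and below it in the rarest class, and this difference was not tested.

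**Figure D4:**
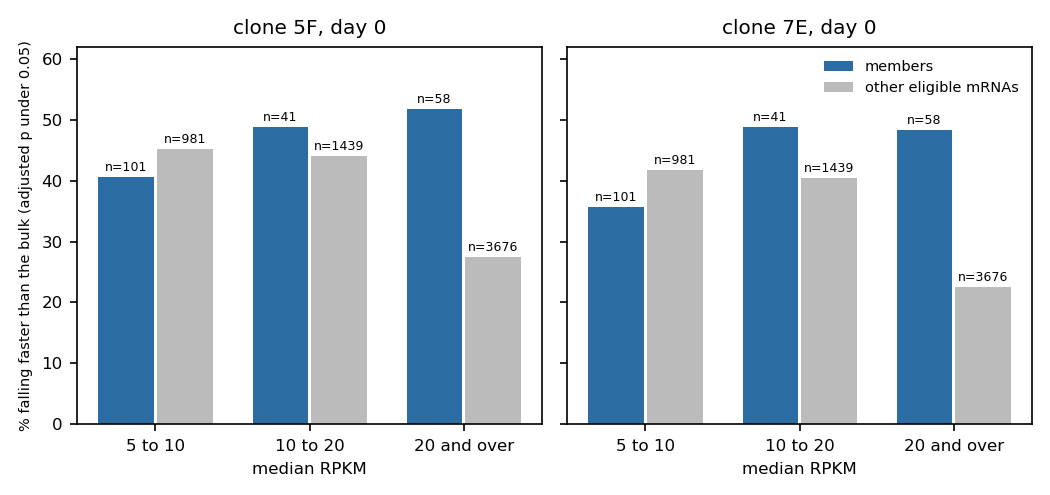
Share of mRNAs that fell faster than the bulk at day 0 (y axis, percent with adjusted p under 0.05) by median RPKM in the tagged lines (x axis), for members and other eligible mRNAs, with the number of mRNAs over each bar. In both clones the members' bar is below the others' in the class of 5 to 10 RPKM and above it at 10 to 20 and at 20 and over.

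Half-lives were computed as the study did, from the slope of ln(normalized count + 1). At day 0 the members had a median half-life of 239 min in clone 5F and 243 min in clone 7E, against 301 and 302 min over the eligible mRNAs, with a median SE of a single member's value of 26.7 and 28.6 min. A half-life under 120 min was found for 31 members (15.5%) in clone 5F and 20 (10%) in clone 7E, against 7.83% and 5.91% of the eligible mRNAs. The shortest were those of Lcmt2 in both clones, with 76.2 ± 10.8 (SE) and 83.0 ± 9.3 min. The fit draws 1 straight line through all times, mock included. For an mRNA that drops early, such as Lcmt2, it gives a longer half-life than the first 120 min would. At 120 min a median of 50.5% of the mock mean was left over the members in clone 5F and 51.3% in clone 7E. Over the eligible mRNAs it was 63.7% in each clone. The 200 mRNAs with the largest SKIV2L ratio had medians of 523 and 476 min and those with the largest XRN1 ratio 225 and 236 min. Of the SKIV2L mRNAs 5% fell faster and 83.5% more slowly than the bulk in clone 5F, and of the XRN1 mRNAs 52.5% and 24%; these differences were not tested.

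Whether the members' decay changed by day 4 of 4OHT was asked in each clone as the interaction of time with day. In this test 0 of 200 members were called in clone 5F, where 0.201% of all genes were, and 0 in clone 7E, where 0.988% were (edgeR quasi-likelihood test, adjusted p under 0.05). At an unadjusted p under 0.05 there were 8 members (4%) and 17 (8.5%), against 3.89% and 9.04% of all genes, and DESeq2 called 0 and 2 members (1%), against 0.285% and 1.72% of all genes. The members' estimates ran from -0.08 to 0.13 log2 per hour in clone 5F and from -0.10 to 0.19 in clone 7E. The median SE of 0.04 gives a typical member an unadjusted 95% interval of 0.08 to either side, so changes of that size in a single mRNA were not detectable here. Larger changes can be missed too, because calls were adjusted over all genes tested. Dcxr, with 0.10 ± 0.03 (SE) log2 per hour in clone 5F, had an adjusted p of 0.57 (edgeR quasi-likelihood test). Median half-lives at day 4 were 266 min in clone 5F and 267 min in clone 7E, with 297 and 293 min over the eligible mRNAs. The study's scaling, used for this test and for half-lives, sets size factors within each time over both clones and days. A change in decay shared by most genes is therefore removed. Scaled to each library's own spike-ins, the day 4 medians were 258 and 295 min, with 287 and 328 min over the eligible mRNAs.

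The pair that DESeq2 called in clone 7E is Hes6, a basic helix-loop-helix factor, and Homer3, a scaffold protein, named here after their values were seen. Of Hes6, 15.8% to 21.1% of the mock mean was left at 360 min at day 0 and 33.5% to 44.6% at day 4, without overlap, and the change in slope was 0.19 ± 0.05 (SE) log2 per hour (edgeR adjusted p = 0.0765). Of Homer3, 28.8% to 33.1% was left at day 0 and 41.9% to 50.6% at day 4, with a change of 0.10 ± 0.03 (adjusted p = 0.0763). Only these shares were higher at day 4, and the mock levels they refer to were lower: Hes6 went from 20.8, 22.3 and 23.2 to 16.2, 16.9 and 17.9 CPM and Homer3 from 33.4, 36.6 and 34.3 to 22.4, 20.3 and 23.7 CPM.

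Mock levels were compared between day 4 and day 0 in 12 libraries with TMM scaling, so that a change is relative to the bulk. Where members changed, more fell than rose. In clone 5F, 43 members (21.5%) fell, where 11.2% of all genes did, and 20 (10%) rose, where 11.7% did (edgeR quasi-likelihood test, adjusted p under 0.05). In clone 7E, 78 members (39%) fell against 20.2% of all genes, and 30 (15%) rose against 20.1%. The eligible mRNAs had 19.0% falling in clone 5F and 28.9% in clone 7E. In both clones 33 members (16.5%) fell and 15 (7.5%) rose, near the 13.5% and 9.31% of the eligible mRNAs, and 0 members and 49 of the 6296 eligible mRNAs went opposite ways. The counts of clone 5F depend on single libraries: without replicate 1 of each group 23 members fell and 10 rose, and without replicate 3 there were 27 that fell. In clone 7E 16 members rose without replicate 1.

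The amount of mRNA per spike-in bears on these levels. The mock libraries of clone 7E at day 4 held 143 to 145 mRNA counts per ERCC count and those at day 0 294 to 304, whereas clone 5F held 304 to 330 at day 4 and 316 to 341 at day 0. Scaled to each library's own spike-ins, the median change over all genes in clone 7E was -1.10 on the log2 scale and all 200 members fell. Every direction given for clone 7E at day 4 is therefore relative to the bulk of genes. Markers of other cell types moved as well in this clone: the epithelial keratin Krt18 went from 41.6, 41.9 and 40.8 CPM at day 0 to 132, 113 and 117 CPM at day 4 and Krt8 from 28.8, 28.3 and 30.1 to 86.1, 74.2 and 78.6 CPM, while Sox1, of neural progenitors, went from 12.5, 14.7 and 12.8 to 2.57, 3.601 and 3.44 CPM. Other neural markers differed in direction in clone 7E. Neurod1 went from 11.8, 11.5 and 12.0 to 16.5, 15.8 and 17.0 CPM, and Pax6 from 46.2, 48.3 and 47.4 to 36.6, 40.0 and 36.1 CPM. The endoderm marker Foxa2 went from 2.92, 2.21 and 2.45 to 6.60, 5.93 and 6.00 CPM, while Gata4 and Sox17 stayed under 4 CPM in this clone. The levels of Ptprc, T, Cdx2 and Col1a2 stayed under 2 CPM in every mock library. In clone 5F Krt18 was at 70.1 to 78.6 CPM at day 0 and 80.2 to 96.4 CPM at day 4. Of the 10 mESC markers 7 fell and 0 rose in clone 7E, and 3 fell and 3 rose in clone 5F (edgeR, adjusted p under 0.05). In clone 7E 20.2% of all genes fell. Nanog, for example, went from 319, 314 and 321 CPM to 247, 257 and 247 CPM in clone 7E. The part of these markers in the members' changes was not tested.

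Foxh1 and Prrg2 were among the 5 named mRNAs that rose most in each clone. Foxh1, the Smad partner in Nodal signalling, rose from 22.2, 25.9 and 22.9 to 33.9, 31.0 and 33.5 CPM in clone 5F (log2 change 0.49 ± 0.07 SE, adjusted p = 3.21e-05) and from 23.0, 22.2 and 21.9 to 34.7, 30.7 and 37.8 CPM in clone 7E (0.63 ± 0.07, adjusted p = 2.62e-07, edgeR). Every day 4 library was above every day 0 library in each clone. Prrg2 had 2.86, 4.02 and 4.74 CPM at day 0 and 6.14, 4.75 and 6.68 CPM at day 4 in clone 5F, with a change of 0.62 that was lost without replicate 1 (adjusted p = 0.133), and rose by 0.76 in clone 7E.

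Clone 7E had further mRNAs that rose. Smim10l1, a small membrane protein, went from 9.68, 10.9 and 11.0 to 17.9, 20.0 and 15.7 CPM (0.76), Clmp from 12.5, 12.2 and 12.5 to 16.3, 19.2 and 16.8 CPM (0.50) and Lpar6 from 31.9, 31.6 and 30.4 to 45.2, 46.5 and 36.3 CPM (0.45). No library overlapped between the days in these 3 mRNAs, and each turned below 0 in own spike-in scaling, as did Foxh1 and Prrg2 in clone 7E. In clone 5F the remaining mRNAs of this order were Rims2, of synaptic vesicle release, with 0.40, Rps2 with 0.42 and Rfesd, a Rieske-domain protein, with 0.36. Rps2 lost its call without replicate 3 (adjusted p = 0.0858), and Rfesd lost it without replicate 1 (0.101) or 2 (0.137, edgeR).

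Among those that fell, Zfc3h1 went from 88.1, 87.0 and 85.9 to 63.3, 68.3 and 68.3 CPM in clone 5F (log2 change -0.37 ± 0.05 SE, adjusted p = 2.30e-05) and from 100.5, 92.1 and 89.2 to 64.3, 68.2 and 71.3 CPM in clone 7E (-0.46 ± 0.05, adjusted p = 1.88e-07, edgeR). The days did not overlap in either clone. Of the 17 mRNAs of MTR4 and its adaptors, 4 fell and 1 rose in clone 5F and 6 fell and 0 rose in clone 7E. Of the eligible mRNAs 19.0% fell and 14.6% rose in clone 5F, and 28.9% and 20.5% in clone 7E. The median change over this list was -0.08 and -0.09, and -0.01 in both clones over all genes tested.

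In clone 5F the largest falls were those of B3galnt2, a glycosyltransferase of dystroglycan, from 51.6, 51.9 and 51.6 to 36.0, 36.0 and 34.3 CPM (-0.53), and of Cflar, an inhibitor of caspase 8, from 20.1, 22.2 and 20.9 to 15.7, 16.5 and 13.6 CPM (-0.45). Hes6 (-0.41), Homer3 (-0.37) and Tmem44 (-0.37) followed, and Tmem44 lost its call without replicate 3 (adjusted p = 0.121, edgeR). In clone 7E Mymx, which fuses muscle cells, fell from 22.6, 25.9 and 26.5 to 12.7, 11.8 and 12.3 CPM (-1.02), and H2-M5, a non-classical class I histocompatibility gene, from 17.3, 15.8 and 14.7 to 7.96, 7.70 and 8.87 CPM (-0.96). The day 4 libraries of both mRNAs lay well below those of day 0. Timm21, of mitochondrial protein import, fell by 0.77, Cnpy1 by 0.74 and Tcea2, a transcription elongation factor, by 0.67 on the log2 scale.

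The clones were also compared at day 0, where they differ in Aven, in the tag on Skiv2l, in the level of Skiv2l (log2 difference -2.10), in the second Rosa26 allele and as clones, which cannot be told apart. Endoderm markers differed as well, with Gata4 at 32.3 to 33.2 CPM in clone 5F and 2.43 to 3.53 CPM in clone 7E, Gata6 at 12.3 to 13.0 and 0.946 to 1.31 CPM and Sox17 at 8.69 to 10.8 and 0.898 to 1.07 CPM, whereas Pax6 was higher in clone 7E (46.2 to 48.3 against 22.1 to 23.4 CPM), and their part in the members' differences was not tested. In clone 7E 44 members (22%) were higher, where 18.2% of all genes were, and 43 (21.5%) were lower, where 17.8% were. Without replicate 1 of each group 24 were lower. Between 5 and 10 RPKM 18.8% of the members were higher and 21.8% lower, against 33.0% and 15.4% of the other eligible mRNAs. From 10 to 20 RPKM it was 29.3% and 14.6% against 27.9% and 17.1%. At 20 RPKM and over it was 22.4% and 25.9% against 23.8% and 21.9%, and these differences were not tested. The largest differences upward were those of Dzip3, a ubiquitin ligase, with 49.3, 44.5 and 43.3 CPM in clone 7E against 22.2, 20.5 and 22.2 in clone 5F (log2 difference 1.08 ± 0.06 SE, adjusted p = 1.48e-12, edgeR), Homer3 with 0.80, the calcium channel gene Cacna1a with 0.73, Arrdc2 with 0.72 and Sfi1 with 0.71. Downward they were those of Eef2kmt, a methyltransferase of elongation factor 2, with 15.5, 17.2 and 14.2 against 25.9, 28.0 and 27.6 CPM (-0.80), H2-M5 with -0.62, nephrin (Nphs1) with -0.61, the complement regulator Cr1l with -0.57 and Dolk with -0.55. For Dzip3 and Eef2kmt the clones did not overlap in any library.

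Whether the day 4 change differed between the clones was tested by the interaction over the 12 mock libraries. It did for 22 members (11%), against 11.9% of all genes tested, with 18 lower and 4 higher in clone 7E. Of the eligible mRNAs 15.0% differed, with 502 lower and 440 higher, and of all genes 933 were lower and 1121 higher; the difference of these splits was not tested. Without replicate 1 of each group the count was 6. Among these, H2-M5 stayed at 25.4, 23.4 and 24.6 CPM at day 0 and 23.8, 23.1 and 22.7 CPM at day 4 in clone 5F (-0.05), while it fell in clone 7E, with a difference of -0.90 ± 0.10 (SE, adjusted p = 1.77e-06, edgeR). Pkp2, a desmosome protein, had 67.3, 65.7 and 69.7 against 64.7, 65.3 and 63.1 CPM in clone 5F and rose from 55.6, 54.2 and 55.6 to 67.9, 69.8 and 68.3 CPM in clone 7E, with a difference of 0.37 ± 0.06 (adjusted p = 0.000357). These contrasts use the same day 0 libraries as the comparison of the clones above.

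**Figure D5:**
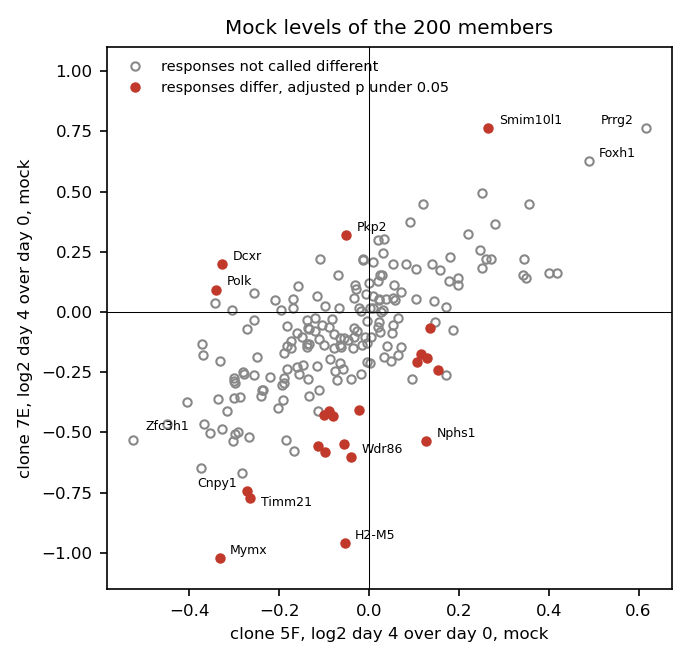
Log2 change of mock levels from day 0 to day 4 (TMM scaling) in clone 5F (x axis) and clone 7E (y axis) for the 200 members. The 22 filled points are members whose change differed between the clones, of which 18 lie lower and 4 (Smim10l1, Pkp2, Dcxr and Polk) higher in clone 7E.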

How the data were processed

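The authors mapped the RNA-seq reads with STAR to mm10 (GRCm38) with ERCC spike-in sequences added, kept unique hits and deposited counts per gene without normalization. The authors deposited the relative binding values as a ratio of pooled CRAC counts over MTR4, SKIV2L and XRN1, for unique hits on 1 transcript per gene. Levels of the tagged lines were deposited as RPKM. A deposited score, the MTR4 ratio scaled to RNA level by the authors, served as an alternative only. Columns with the authors' log2 fold changes and adjusted p-values, and their half-lives, were not used. The members and gene lists were chosen with earlier results of these data known, so that no list is independent evidence.

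The counts were analysed with edgeR 4.0.16 in R 4.3.3 (filterByExpr, TMM, quasi-likelihood test, Benjamini-Hochberg threshold 0.05 over all genes). The change in decay used the study's scaling, which combines DESeq2 size factors within each time with 1 spike-in factor per time, from the 34 ERCC sequences with a mean of at least 50 counts. Of 53380 genes, 53275 had a symbol in Gencode M21, a later release than the M16 used by the authors. The tests were checked on simulated counts. Replicate libraries differed by a chi-square per gene of at least 2.81, so none was a copy. Named genes are the 10 largest ratios, 3 on each side of the limit, up to 5 per test and direction among called members that averaged 100 counts or more and did not change sign when a replicate number was dropped, and up to 4 members per list. Alternatives were other scalings, DESeq2 1.42.0, other filters, a replicate block, each replicate or the mock libraries left out, and other limits for the members. CRAC libraries were not analysed here beyond the pooled values. For actinomycin D the study's methods and the labels state different doses, which are therefore not given. Of the 18 gene lists, 1 is not reported here. Libraries of the same replicate number, day and time correlated over 0.1 between the clones in every pair (0.12 to 0.84), so that the numbers were taken to pair the clones, from the data and not from the labels, and not the days.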

Additional observations from a re-analysis of the deposited data

Results flagged for a closer look

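Between the clones, 22 members differed in their change of mock level from day 0 to day 4 by the interaction test of edgeR (adjusted p under 0.05), which is what marked them for a closer look. They are 11% of the members, against 11.9% of all genes tested and 15.0% of the eligible mRNAs, so the number is not particular to the members. The difference, clone 7E minus clone 5F on the log2 scale, was 0.53 for Dcxr, a carbonyl reductase, 0.50 for Smim10l1, 0.43 for Polk, a translesion DNA polymerase, and 0.37 for Pkp2. It was -0.90 for H2-M5, -0.69 for Mymx, -0.66 for Nphs1, -0.56 for Wdr86, a WD-repeat protein, and -0.51 for Timm21. Dcxr had 7.64, 8.89 and 8.34 CPM at day 0 and 7.37, 5.41 and 6.78 CPM at day 4 in clone 5F, and 8.33, 11.7 and 9.13 against 11.0, 11.0 and 11.5 CPM in clone 7E, where the days overlap. Polk fell from 32.6, 28.9 and 34.0 to 25.3, 25.4 and 23.6 CPM in clone 5F without overlap, and had 30.5, 32.8 and 28.8 against 34.6, 33.3 and 30.2 CPM in clone 7E, with overlap. Without replicate 1 of each group the calls of Dcxr (adjusted p = 0.106), Smim10l1 (0.324), Polk (0.156), Wdr86 (0.107) and Timm21 (0.102) were lost, and that of Dcxr was also lost without replicate 3 (0.162, edgeR). H2-M5, Mymx, Nphs1 and Pkp2 kept theirs with each replicate number left out.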

How the results depend on the processing

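All values here are percent of the members called unless a gene is named. For slopes at day 0, the study's spike-in scaling left 0 rising and 98.5 falling in each clone, and leaving out the mock samples gave 29.5 falling in clone 5F. In that scaling the slopes of Flot1 (-0.0027 in clone 5F and -0.020 in clone 7E), Rprd1a (-0.034 and -0.034), Nrm (-0.036 and -0.046), Nek1 (-0.053 and -0.058), Gatb (-0.057, clone 5F) and Uros (-0.082, clone 7E) turned below 0, and without the mock samples those of Zfc3h1 turned to 0.14 and 0.047. For the change in decay in clone 7E, the share called went from 0 to 0.513 with a filter on a mean of 100 counts, 1 with DESeq2, 1.5 with TMM, 0.5 with own spike-ins and 1 when members needed a median RPKM of at least 20. With own spike-ins, mock levels gave 5 rising in clone 5F, 0 rising and 100 falling in clone 7E, 9 higher and 47 lower in clone 7E against 5F, and 100 for the difference of responses. The day 4 changes in clone 7E then turned to -0.33 for Smim10l1, -0.33 for Prrg2, -0.46 for Foxh1, -0.60 for Clmp and -0.64 for Lpar6, and the differences of responses to -0.50 for Dcxr, -0.53 for Smim10l1, -0.59 for Polk and -0.66 for Pkp2. Spike-in scalings count the fall of mRNA per spike-in, which TMM removes. Fewer cells and less RNA per cell cannot be told apart in it, and otherwise the cause was not tested. Leaving out each replicate number gave 42 to 44.5 falling and 21 to 22.5 rising for slopes in clone 5F, 38 to 40.5 and 19.5 to 20.5 in clone 7E, 0 for the change in decay in both, 11.5 to 21.5 falling and 5 to 8.5 rising at day 4 in clone 5F, 26 to 35.5 and 8 to 13.5 in clone 7E, 12 to 18.5 lower and 15.5 to 19.5 higher between the clones, and 3 to 10.5 for the difference of responses. Skiv2l in clone 5F ranged from -0.071 to 0.041. Replicate numbers did not pair the samples between days, where 22 of 69 correlations, all of them of day 0 with day 4, were at most 0.1. With the block the comparison of the clones at day 0 gave 21.5 higher and 21 lower and lost no named call. With the replicate block the slopes gave 25 rising and 45 falling in clone 5F and 25.5 and 41 in clone 7E, the change in decay 0 in both, and the responses 10.5, and of the named genes only the slope of Zfc3h1 in clone 7E lost its call (edgeR, adjusted p = 0.0579). Taking 100 or 400 members or ranking by the RNA-scaled MTR4 value left all 13 shares within 1.5 times. The depth behind each binding ratio is unknown.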
